A study of Mus musculus with 6 samples.

Results

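The Hox, T-box and forkhead transcription factor genes, together with the Meox, Meis and Pbx homeobox genes, were followed in mouse lung fibroblasts before and after transfer into injured lungs. These families, and the gene lists used further below, were chosen with earlier results of these data known. Members were then taken by symbol, as every row named Hoxa, Hoxb, Hoxc, Hoxd, Tbx, Fox, Meox, Meis or Pbx with its number. This gave 102 of the 24408 genes in the table. They were 37 Hox genes, 13 T-box genes, 44 forkhead genes, 2 Meox genes, 2 Meis genes and 4 Pbx genes. At least 1 tag was counted for 65 of them, and no tag in any library for the other 37.

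Each of the 6 groups was 1 library of C57BL/6 donor cells. Untreated held fibroblasts of Col-GFP mice, a collagen reporter strain, taken from uninjured lungs by removing cells that carry markers of other lineages. Day 2, Day 4 and Day 7 held Col-GFP+ cells sorted on those days from wild-type hosts, which had received the lung-injuring drug bleomycin into the airways 7 days before the cells. Acta2 low and Acta2 high held transferred cells of a strain with both Col-GFP and Acta2-mKO1, sorted on the reporter of smooth muscle actin at a time after transfer that the labels do not state. The 5 transferred libraries therefore all come from injured hosts, and the labels list no library of cells transferred without bleomycin, no age and no number of animals. Which collagen promoter drives the reporter is not stated either.

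Hox genes encode homeodomain proteins that are switched on in order along each gene cluster in the embryo, and adult fibroblasts keep part of the code of the place they came from. Meis and Pbx proteins bind DNA together with Hox proteins. T-box genes such as Tbx2, Tbx4 and Tbx5 act in the mesenchyme of the embryonic lung, and several forkhead genes, among them Foxf1 and Foxf2, act in mesenchyme that receives Hedgehog signals. Other forkhead factors have quite different roles: Foxm1 drives genes of mitosis, and Foxo factors act under insulin signalling.

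Levels are CPM, tags per 1000000 assigned tags. A SAGE transcript is counted by a single tag, so these levels do not scale with transcript length. Libraries held 4448065 to 6175334 tags. The 7 fibroblast markers summed to 3827 to 19506 CPM. The leukocyte and endothelial lists stayed at or below 2.56 CPM in every library, with Ptprc at 0 in all 6. The mesothelial list (6 genes) summed to 48.8 CPM in Untreated, of which Upk1b made 38.6, against 3.08 to 16.3 CPM after transfer. The pericyte and smooth muscle list (7 genes) summed to 44.8 CPM in Untreated and 54.9, 76.0 and 116 CPM on Day 2, Day 4 and Day 7. It summed to 218 CPM in the Acta2 low cells and 139 CPM in the Acta2 high cells. Des made 12.6 CPM of it in Untreated and 189 CPM in Acta2 low. Kcnj8 made 32.0 CPM in Untreated and 14.4, 8.09 and 32.1 CPM on Day 2, Day 4 and Day 7. Des and Rgs5 were higher in Acta2 low than in Acta2 high, and Cspg4, Notch3, Kcnj8, Cnn1 and Myh11 lower. The epithelial list (12 genes) summed to 42.4 CPM in Untreated and 37.9, 23.2 and 45.3 CPM on Day 2, Day 4 and Day 7. In the same order, Sftpc made 20.7, 5.51, 3.37 and 14.9 CPM of it, and Scgb1a1 10.4, 3.56, 0.67 and 22.04 CPM. Krt8 and Krt18 went the other way on Day 2 and Day 4, with Krt8 at 9.14, 24.9, 16.4 and 6.49 CPM. The part of the epithelial, mesothelial or pericyte and smooth muscle list in any difference from Untreated below was not tested. In bulk samples such as these, fewer cells of a type and less RNA per cell cannot be told apart.

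The 102 regulators together took 572 CPM in Untreated and 506, 558 and 657 CPM on Day 2, Day 4 and Day 7, while the Acta2 low cells held 512 CPM and the Acta2 high cells 525 CPM. Within that total the T-box genes summed to 203 CPM in Untreated, 106 CPM on Day 2, 94.6 CPM on Day 4 and 177 CPM on Day 7. The forkhead genes went the other way, from 125 CPM to 207, 274 and 246 CPM, with Foxp1 and, outside Day 7, Foxr1 adding most. Foxr1, whose tag may be shared with other genes as described further below, held 1.83, 36.4, 68.1 and 4.27 CPM of these sums. Without Foxr1 the members together took 571 CPM in Untreated and 469, 490 and 653 CPM on Day 2, Day 4 and Day 7. Most of these tags came from few genes, since the 25 members averaging 5 CPM or more over the 6 libraries held 92.5% to 93.9% of the tags of each library's members.

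Nearly all Hox tags came from the anterior parts of the Hoxa and Hoxb clusters, before and after transfer. Of 4519 Hox tags over all libraries, 4459 came from the 14 Hoxa and Hoxb members of paralogue groups 1 to 7, the end of each cluster used towards the head, and 13 of those 14 had a tag. Groups 8 to 13 gave 55 tags, 1.22% of the Hox total, with 3 of 17 genes seen, and 51 of the 55 were of Hoxb8. The Hoxc and Hoxd clusters together gave 7 tags, from 4 of 16 genes, and no Hoxd gene had any. The 3 genes Hoxa5, Hoxb2 and Hoxb5 had the highest Hox levels. In no library did groups 8 to 13 sum to more than 3.597 CPM. Summed Hox levels were 151 CPM in Untreated, 139 CPM on Day 2, 142 CPM on Day 4, 167 CPM on Day 7, 117 CPM in Acta2 low and 127 CPM in Acta2 high. A gene without a tag may be silent or may have no tag that could be assigned to it.

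**Figure D1:**
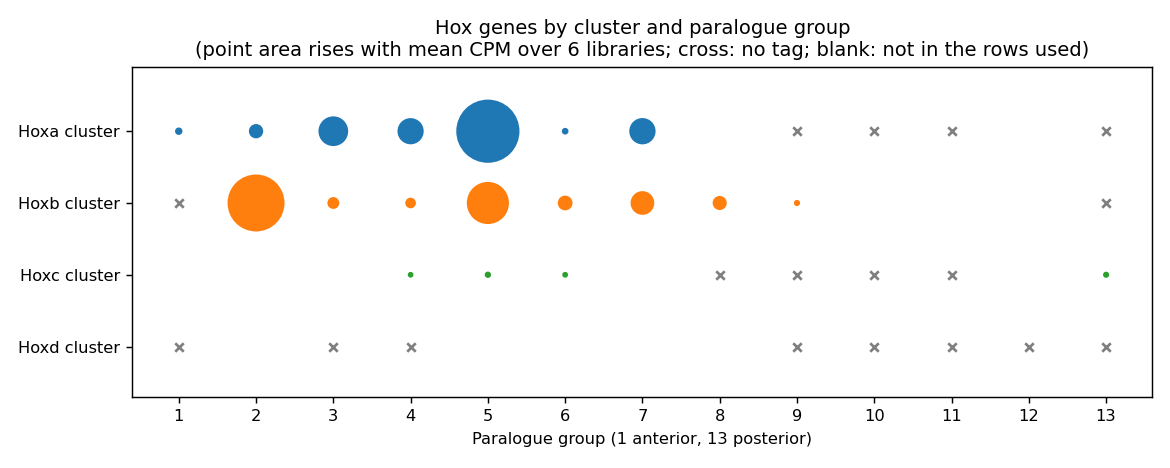
Hox genes laid out by cluster (vertical axis) and paralogue group (horizontal axis), with point area rising with the mean CPM over 6 libraries. Crosses mark genes without any tag, and blank places are not used here. The large points sit in Hoxa and Hoxb up to group 7, and the points of Hoxb9 and the Hoxc genes stand for 1 to 3 tags each, with Hoxa5 at a mean of 46.1 CPM and Hoxb2 at 37.1 CPM.

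For the comparisons that follow, each gene's difference in log2(CPM + 1) was set against the median difference of all 5903 genes averaging 5 CPM or more, and a gene was called higher or lower at 2-fold or more. That median stood 0.61 log2 above Untreated on Day 2, 0.30 on Day 4 and 0.37 on Day 7, so a gene with an equal CPM before and after transfer counts as somewhat lower. Of the members, 25 passed the filter. The lowest of them was Foxm1 with a mean of 5.36 CPM, and the highest left out was Foxj2 with 3.94 CPM. There were 7 that stood below 5 CPM in Untreated and passed through the transferred libraries, Foxm1, Foxr1 and Hoxa4 among them, so a higher value after transfer was partly fixed by the filter. With 1 library a group there is no replicate check on any difference, and intervals are 95% counting intervals. In the GENCODE annotation the exons of 12 of the 25 overlap another gene, on the same strand for Foxm1, Foxp1, Hoxa3, Meis1 and Pbx2, and on the opposite strand for Foxf2, Foxq1, Hoxa3, Hoxa4, Hoxa7, Hoxb2, Hoxb5, Meis1 and Tbx3. Whether counting used strand is not stated, so the values of these 12 are uncertain to the extent that tags were shared.

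**Figure D2:**
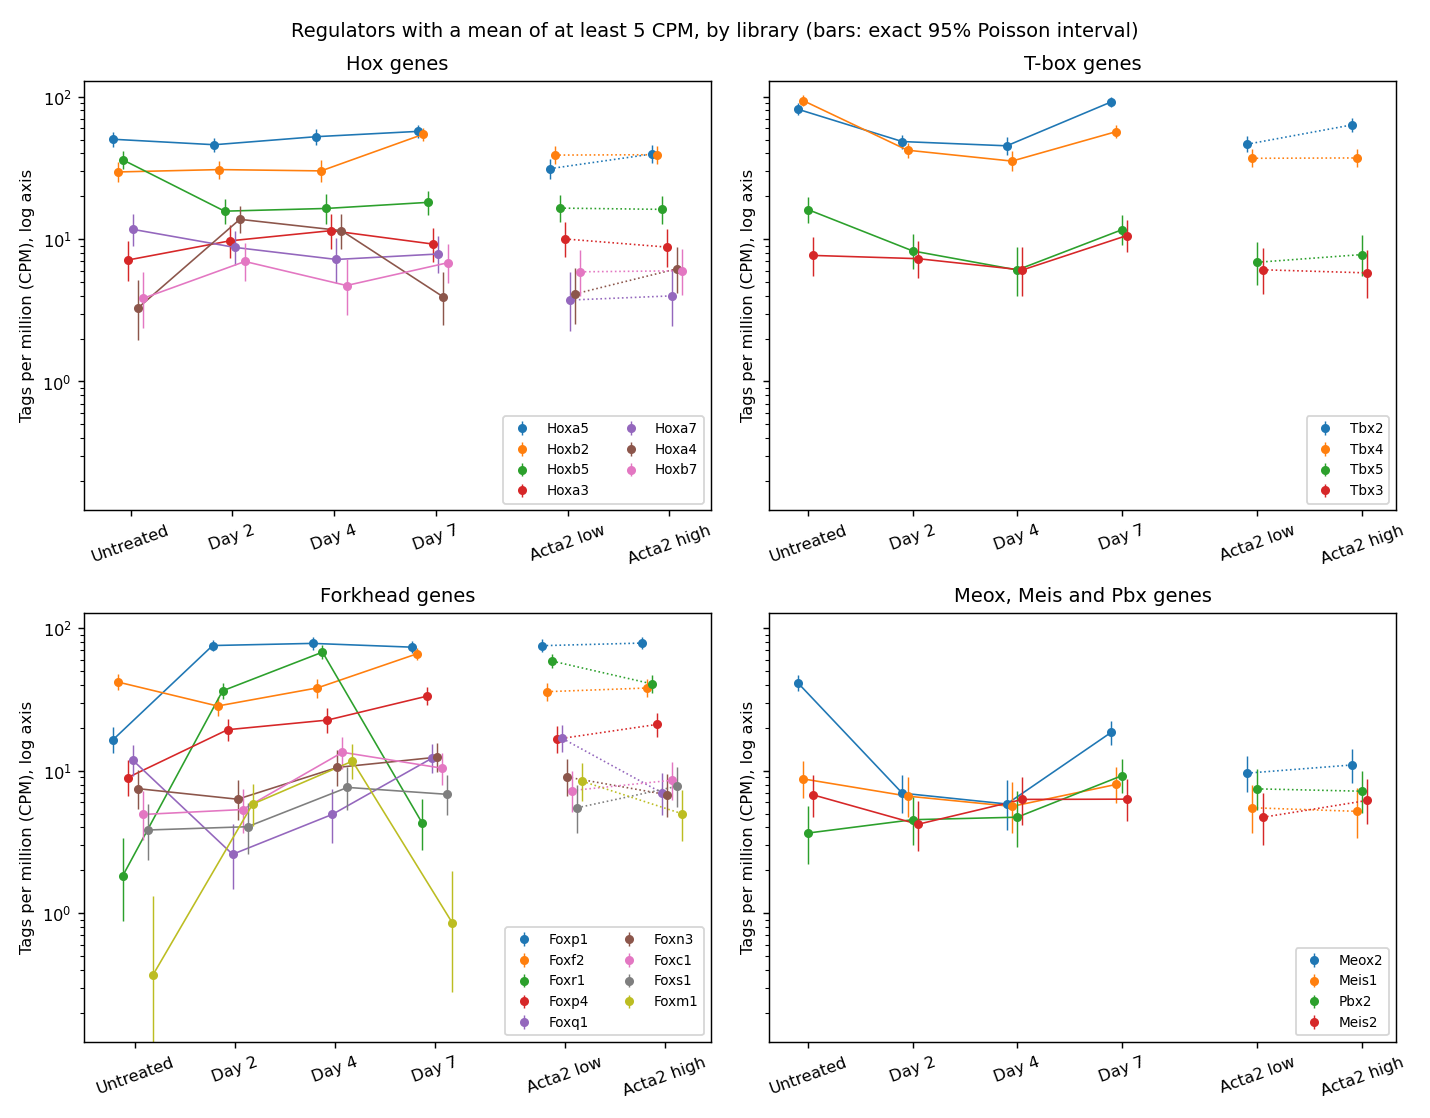
CPM (log axis) of 24 members averaging 5 CPM or more, by library, in 4 panels; points are single libraries, bars are 95% Poisson intervals, solid lines join Untreated to Day 7 and dotted lines the Acta2 sorts. Foxp1 steps up from 16.5 CPM to between 73.8 and 78.9 CPM, and Meox2 drops from 41.5 CPM to 5.85 CPM on Day 4 and stands at 18.6 CPM on Day 7.

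Meox2, Tbx4 and Hoxb5 were among the members lower than Untreated in all 5 transferred libraries. The rule was met by 4 of 25 members, 16.0%, where 6.08% of all genes met the same rule, and the 5 comparisons share the single Untreated library. Without Day 7, Tbx5 joined them and the count was 5, where 9.94% of all genes met the rule. On CPM as deposited, with no median removed, only Meox2 was still called in all 5, and with a pseudocount of 5 only Meox2 and Hoxb5 were. Without the 100 most abundant genes, Tbx4 was not called on Day 7.

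Meox2, a homeobox gene of embryonic muscle precursors that also restrains growth of vascular smooth muscle, fell by the most of the 3 on Day 2 and Day 4. It had 41.5 CPM in Untreated, 6.96 on Day 2, 5.85 on Day 4, 18.6 on Day 7, 9.63 in Acta2 low cells and 10.98 in Acta2 high cells. All transferred libraries lay far below Untreated, with Day 7 the highest of them. Relative to the median gene the level was 9.08-fold lower on Day 2 (6.53 to 12.9), 8.72-fold lower on Day 4 (5.80 to 13.6) and 2.89-fold lower on Day 7 (2.29 to 3.66). From Day 4 to Day 7 it was 3.01-fold higher (1.95 to 4.82). In the Acta2 sorts it was 5.64-fold lower in Acta2 low and 4.49-fold lower in Acta2 high.

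Tbx4 marks the mesenchyme of the embryonic lung and acts there with Tbx5 on branching. It was the highest of all members before transfer, at 94.0 CPM, and stood at 42.1 on Day 2, 35.3 on Day 4, 56.9 on Day 7, 36.9 in Acta2 low cells and 37.1 in Acta2 high cells. Each transferred library lay well under the Untreated value and Day 7 was again the nearest to it. The fold relative to the median gene was 3.40 lower on Day 2 (2.92 to 3.96), 3.27 lower on Day 4 (2.73 to 3.94) and 2.14 lower on Day 7 (1.86 to 2.46). It was 3.33 lower in Acta2 low and 3.01 lower in Acta2 high.

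Hoxb5, a Hox gene with a role in airway branching in the mouse, dropped to a steady lower level. It had 36.0 CPM in Untreated, 15.7 on Day 2, 16.4 on Day 4, 18.1 on Day 7, 16.5 in Acta2 low cells and 16.2 in Acta2 high cells. The 5 transferred values lay close together. The fold was 3.49 lower on Day 2 (2.73 to 4.50), 2.70 lower on Day 4 (2.05 to 3.58) and 2.57 lower on Day 7 (2.02 to 3.29).

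Foxp1 was the only member higher than Untreated in all 5 transferred libraries, 1 of 25 or 4.0%, where 6.47% of all genes met that rule. It encodes a forkhead repressor known from lung epithelium, heart and lymphocytes. Its levels were 16.5 CPM in Untreated, 75.8 on Day 2, 78.5 on Day 4, 73.8 on Day 7, 75.6 in Acta2 low cells and 78.9 in Acta2 high cells. In CPM the 5 transferred libraries lay close together. Relative to the median gene Foxp1 was 3.02-fold higher on Day 2 (2.41 to 3.83), 3.88-fold on Day 4 (3.07 to 4.95), 3.46-fold on Day 7 (2.75 to 4.40), 3.51-fold in Acta2 low and 4.03-fold in Acta2 high. Without Day 7, Foxm1 and Foxr1 met the rule as well, making 3, where 10.4% of all genes did.

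RefSeq promoters are shown for Foxp1, Tbx4 and Meox2, members that differed from Untreated in all 5 transferred libraries, to put the start regions of a member that went up beside 2 that went down. Hoxb5 had no entry in the table used. Each runs from 250 bases before to 50 bases after an annotated start on GRCm38.p6, in the direction of transcription, and they were chosen after the values were seen. Meox2 is at chr12:37108290-37108589 (plus strand, 60.7% GC), Tbx4 at chr11:85896515-85896814 (plus strand, 59.0% GC) and the outermost of 3 Foxp1 starts at chr6:99520944-99521243 (minus strand, 60.3% GC). Capitals mark the TATA-box letters TATAAA, which read TTTATA here because the match lies on the other strand.
Meox2: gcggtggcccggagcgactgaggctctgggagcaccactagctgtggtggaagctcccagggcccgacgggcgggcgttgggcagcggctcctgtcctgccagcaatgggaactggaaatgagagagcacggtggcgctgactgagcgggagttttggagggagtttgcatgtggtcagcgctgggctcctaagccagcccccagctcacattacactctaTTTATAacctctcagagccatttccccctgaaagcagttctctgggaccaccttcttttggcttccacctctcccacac
Tbx4: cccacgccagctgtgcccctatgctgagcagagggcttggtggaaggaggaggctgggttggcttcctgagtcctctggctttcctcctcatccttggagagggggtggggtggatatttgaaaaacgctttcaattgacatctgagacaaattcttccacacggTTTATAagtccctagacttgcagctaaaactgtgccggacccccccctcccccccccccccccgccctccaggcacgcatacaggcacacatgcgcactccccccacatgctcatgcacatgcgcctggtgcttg
Foxp1: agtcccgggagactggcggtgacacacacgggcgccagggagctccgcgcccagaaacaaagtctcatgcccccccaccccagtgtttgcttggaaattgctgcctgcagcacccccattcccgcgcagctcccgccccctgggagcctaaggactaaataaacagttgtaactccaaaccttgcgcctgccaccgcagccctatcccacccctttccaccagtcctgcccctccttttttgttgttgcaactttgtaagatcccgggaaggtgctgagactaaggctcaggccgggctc
All 3 are richer in GC than the median promoter, at 52.7%. The letters searched on both strands were TATAAA, held by 13.6% of 32851 promoters; CCAAT, held by 37.4%; the forkhead core GTAAACA, held by 3.65%; the T-box site AGGTGTGA, held by 1.28%; and the Meis core TGACAG, held by 19.2%. The Meox2 and Tbx4 windows held 1 TATAAA each and none of the other motifs, and the Foxp1 window shown held none of the 5. The other Foxp1 starts held 1 TGACAG and 1 CCAAT. A match in such a window is a description of letters, not a binding site.

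**Figure D3:**
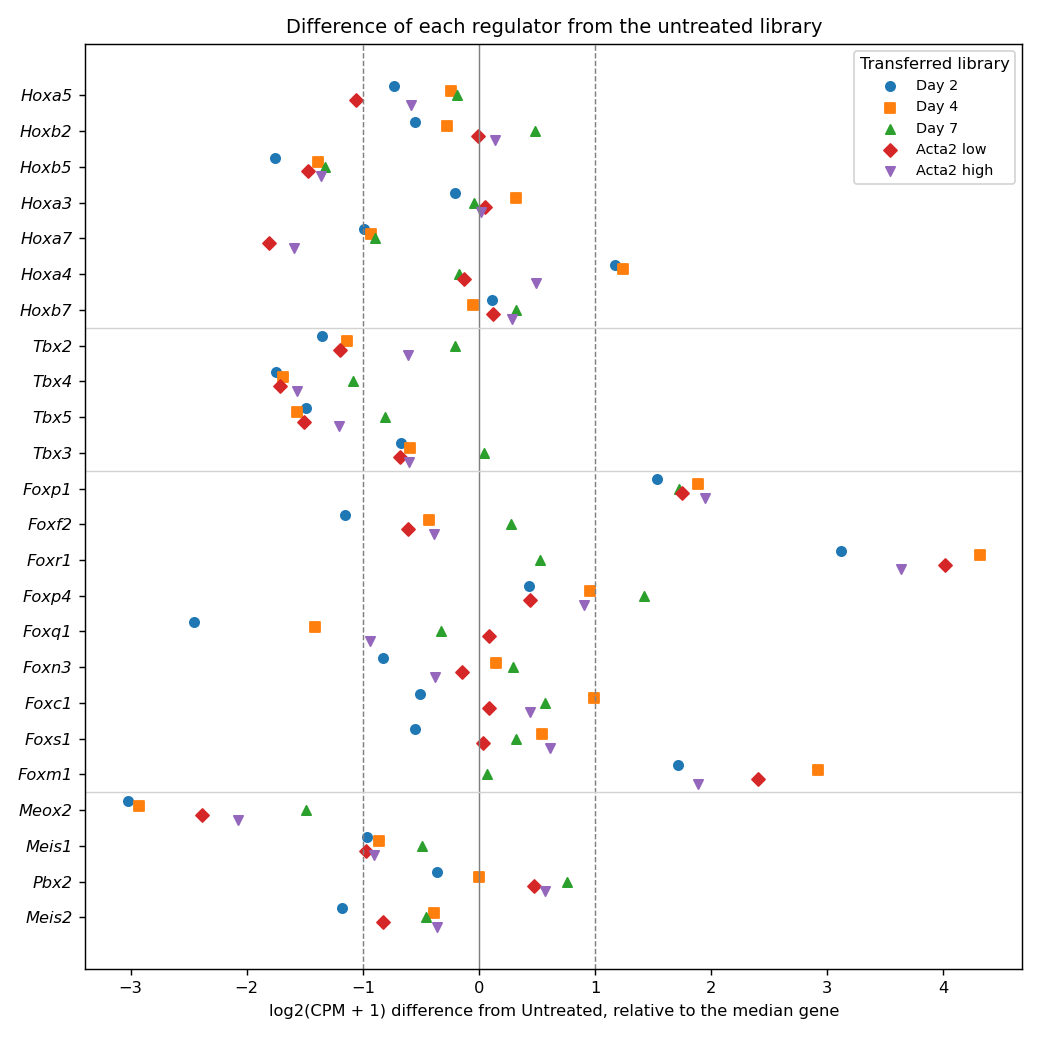
Difference from Untreated in log2(CPM + 1), after removal of the median of all tested genes, for 24 members (rows) in the 5 transferred libraries (points); dashed lines mark 2-fold. Meox2, Tbx4 and Hoxb5 lie left of the lower line in every library and Foxp1 right of the upper line in every library.

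Tbx2, Foxf2 and Foxq1 were low early after transfer and within 2-fold of Untreated on Day 7, while Tbx4 and Meox2 were nearer to it on Day 7 but still called lower. Against Untreated, 9 of 25 members were lower on Day 2 (36.0%, where 18.6% of all genes were lower), 7 on Day 4 (28.0%, where 16.4% were) and 4 on Day 7 (16.0%, where 9.08% were). On CPM as deposited the Day 2 count of lower members was 4 (Foxq1, Hoxb5, Meox2 and Tbx4) and that of Day 7 was 1 (Meox2), because the median removed is itself above 0. Of all genes, 9.05% were lower on Day 2 and 5.35% on Day 7 on that scale. Tbx2, Tbx5, Foxf2 and Meis2 were then not called on Day 2, nor Tbx2 on Day 4. With a pseudocount of 5, Foxf2 and Meis2 were not called on Day 2, nor Foxq1 on Day 4. The median member stood at -0.73 log2 on Day 2, -0.27 on Day 4 and -0.04 on Day 7, against 0 for all tested genes. Those lower on Day 2 included Foxf2, Foxq1, Hoxb5, Meis2, Meox2, Tbx2, Tbx4 and Tbx5, and those lower on Day 4 included the same names without Foxf2 and Meis2. On Day 7 Hoxb5, Meox2 and Tbx4 were among the lower members.

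Tbx2, a T-box repressor that keeps embryonic lung mesenchyme dividing, had 81.7 CPM in Untreated, 48.4 on Day 2, 45.2 on Day 4, 91.9 on Day 7, 46.4 in Acta2 low cells and 63.3 in Acta2 high cells. Only the Day 7 value was close to Untreated. It was 2.57-fold lower on Day 2 (2.22 to 2.99) and 2.22-fold lower on Day 4 (1.88 to 2.64), and 1.92-fold higher on Day 7 than on Day 4 (1.63 to 2.27). On Day 7 it was 1.15-fold lower than Untreated relative to the median gene (1.01 to 1.31), a direction that turned on CPM as deposited.

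Tbx5 is known for its role in forelimb, heart and lung formation. Like Tbx2 it was low on Day 2 and Day 4, but on Day 7 it was still below Untreated in CPM. It had 16.1 CPM in Untreated, 8.26 on Day 2, 6.07 on Day 4 and 11.6 on Day 7. The Acta2 low cells held 6.88 CPM and the Acta2 high cells 7.79 CPM. Tbx5 was 2.97-fold lower on Day 2 (2.08 to 4.28), 3.26-fold lower on Day 4 (2.09 to 5.21) and 1.79-fold lower on Day 7 (1.29 to 2.50). Tbx3, a close relative of Tbx2, ran from 5.79 to 10.6 CPM and stayed within 2-fold of Untreated in all 5. Tbx2 lies next to Tbx4 on chromosome 11 and Tbx3 next to Tbx5 on chromosome 5, with 0 protein-coding genes between the members of each pair in RefSeq.

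Foxf2, a mesenchymal forkhead gene that responds to Hedgehog signals in palate and gut, had 42.0 CPM in Untreated, 28.5 on Day 2, 38.2 on Day 4, 66.5 on Day 7, 35.9 in Acta2 low cells and 38.1 in Acta2 high cells. It was lowest on Day 2 and highest on Day 7. The fold was 2.25 lower on Day 2 (1.84 to 2.75) and 1.22 higher on Day 7 (1.03 to 1.44). Its relative Foxf1, listed as Foxf1a, had only 27 tags over all libraries.

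Foxq1, a forkhead gene known from hair differentiation and from epithelial tumours, had 11.9 CPM in Untreated, 2.59 on Day 2, 4.95 on Day 4, 12.3 on Day 7, 16.9 in Acta2 low cells and 6.99 in Acta2 high cells. It was 6.99-fold lower than Untreated on Day 2 (4.00 to 12.9) and 2.95-fold lower on Day 4 (1.80 to 5.03), and then 2.35-fold higher on Day 7 than on Day 4 (1.44 to 3.98). The Foxq1, Foxf2 and Foxc1 genes adjoin on chromosome 13, with 0 other protein-coding genes between neighbours. Foxc1, a forkhead gene of eye, vessel and skeletal mesenchyme, took a different course, with 4.94 CPM in Untreated, 5.34 on Day 2, 13.5 on Day 4 and 10.4 on Day 7.

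A smaller group was high on Day 2 and Day 4 and back near the Untreated level on Day 7. Against Untreated, 4 members were higher on Day 2 (16.0%, where 19.1% of all genes were) and 4 on Day 4 (16.0%, where 18.2% were), in both cases Foxm1, Foxp1, Foxr1 and Hoxa4. On Day 7 there were 2 (8.0%, where 11.4% of all genes were), Foxp1 and Foxp4. The members' share of higher genes was thus at or below the background at each time. With a pseudocount of 5, Foxm1 was not called on Day 2 and Hoxa4 on neither day. On CPM as deposited the counts were 5 higher and 4 lower on Day 2, 6 and 5 on Day 4, and 3 and 1 on Day 7. Of all genes, 36.5% were then higher and 9.05% lower on Day 2. On Day 4 these shares were 24.9% and 11.45%, and on Day 7 19.9% and 5.35%.

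Hoxa4 was the only Hox gene called higher at any time against Untreated. It had 3.29 CPM in Untreated, 13.8 on Day 2, 11.5 on Day 4, 3.93 on Day 7, 4.13 in Acta2 low cells and 6.19 in Acta2 high cells. Day 2 and Day 4 stood apart from the other 4 libraries. It was 2.74-fold higher on Day 2 (1.64 to 4.85) and 2.84-fold higher on Day 4 (1.63 to 5.16), then 3.09-fold lower on Day 7 than on Day 4 (1.85 to 5.29).

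Foxm1 encodes an activator of genes of the G2 phase and mitosis. It had 0.366 CPM in Untreated, which is 2 tags, then 5.83 CPM on Day 2, 11.7 on Day 4, 0.854 on Day 7, 8.45 in Acta2 low cells and 4.99 in Acta2 high cells. Untreated and Day 7 were near 0 and the other 4 libraries were not. The ratio to Untreated was 10.5 on Day 2 (2.69 to 89.7) and 26.03 on Day 4 (6.85 to 221), wide because of the 2 tags, and the level on Day 7 was 14.5-fold lower than on Day 4 (5.82 to 46.4). Of 20 listed genes known as Foxm1 targets, 11 passed the filter, through the libraries in which they are high, so their counts against Untreated were largely fixed by it and are not given. Birc5, a survival and cytokinesis gene of that list, had 1.46 CPM in Untreated, 49.7 on Day 2, 52.2 on Day 4 and 12.0 on Day 7.

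Foxp4, a repressor that acts with Foxp1 in lung epithelium, differed from Foxp1 in its course. It had 8.96 CPM in Untreated, 19.4 on Day 2, 22.7 on Day 4, 33.5 on Day 7, 16.7 in Acta2 low cells and 21.2 in Acta2 high cells. Every transferred library was above Untreated and Day 7 was the highest. Relative to the median gene it was 1.42-fold higher on Day 2 (1.01 to 2.03), 2.06-fold on Day 4 (1.45 to 2.96) and 2.89-fold on Day 7 (2.10 to 4.03). Of the same subfamily, Foxp2 had 16 tags in all and Foxp3 had 1.

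Foxr1 had the widest range of any member, and its tag may be shared. It had 1.83 CPM in Untreated, 36.4 on Day 2, 68.1 on Day 4, 4.27 on Day 7, 58.9 in Acta2 low cells and 40.7 in Acta2 high cells. The level was high in 4 libraries and low in Untreated and Day 7. The fold relative to the median gene was 13.1 higher on Day 2 (6.98 to 27.6) and 30.3 higher on Day 4 (16.3 to 63.9), and on Day 7 it was 16.9-fold lower than on Day 4 (11.2 to 26.5). The far more abundant genes Luc7l2 and Zyg11b moved in the same libraries. Luc7l2 had 1547 CPM in Untreated, 34477 on Day 2, 47061 on Day 4, 5026 on Day 7, 46112 in Acta2 low cells and 31665 in Acta2 high cells. Per 1000 Luc7l2 tags, Foxr1 had between 0.850 and 1.45 tags in every library, and per 1000 Zyg11b tags between 0.487 and 1.36. If the tags start at CATG and run 14 bases, as in most SAGE protocols (the enzyme is not given), a tag at the 3' end of Foxr1 transcripts also occurs in 765 other gene symbols in GENCODE transcripts, Luc7l2 among them and Zyg11b not. For the other 24 members that passed the filter the most is 18, for Pbx2. Without Foxr1, the count of higher members was 3 on Day 2 and 3 on Day 4. The part of shared tags in these values was not tested.

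**Figure D4:**
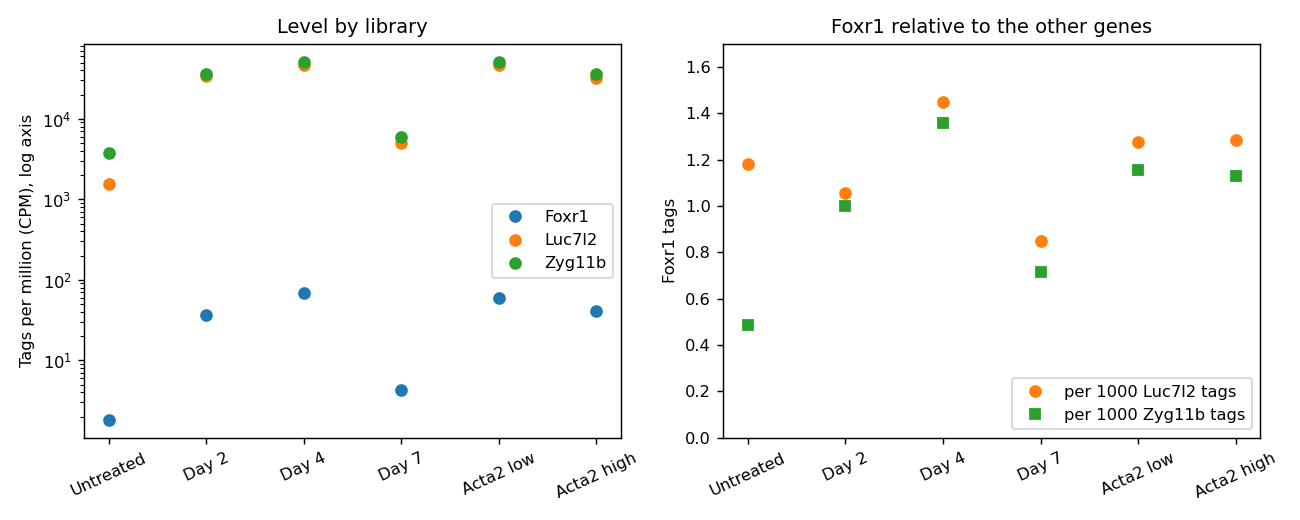
Left, CPM (log axis) of Foxr1, Luc7l2 and Zyg11b in each library; right, Foxr1 tags per 1000 tags of each of the other genes. All 3 genes are high in Day 2, Day 4 and both Acta2 sorts, while the ratio to Luc7l2 stays between 0.850 and 1.45.

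Among the transferred libraries, all members called from Day 2 to Day 4 were forkhead genes, and a few members moved in either direction after that step. From Day 2 to Day 4, 5 members were higher (20.0%, where 5.35% of all genes were), all of them forkhead genes: Foxc1, Foxm1, Foxq1, Foxr1 and Foxs1. None was lower, where 2.9% of all genes were. Without Foxr1, whose tag may be shared, 4 of 24 members were higher, where 5.35% of all genes were. Foxq1 rested on 16 and 22 tags on Day 2 and Day 4, and Foxs1 on 25 and 34. Foxc1 was 3.13-fold higher (2.01 to 4.94), Foxm1 2.48-fold (1.59 to 3.91), Foxq1 2.37-fold (1.19 to 4.82) and Foxs1 2.34-fold. The median gene stood at -0.31 log2 over this step, and only Foxc1 was called on CPM as deposited, while only Foxc1 and Foxr1 were with a pseudocount of 5. From Day 4 to Day 7, 2 members were higher (8.0%, where 8.96% of all genes were), Foxq1 and Meox2. In the same step 3 were lower (12.0%, where 8.93% were), Foxm1, Foxr1 and Hoxa4. With a pseudocount of 5 the calls on Foxq1 and Hoxa4 in this step were not made.

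Few regulators differed by 2-fold between the Acta2 sorts. No member was higher in Acta2 high, where 1.03% of all genes were, and 1 was lower, where 0.678% were. That member was Foxq1, with 16.9 CPM in Acta2 low and 6.99 CPM in Acta2 high, 2.21-fold lower in Acta2 high (1.48 to 3.38), and the call was not made with a pseudocount of 5. Keratins were also high in Acta2 low. The list of 12 epithelial markers summed to 304 CPM there and to 12.98 CPM in the other sort, with Krt8 at 265 and 6.99 CPM and Krt18 at 31.8 and 1.40 CPM. Cdh1 was at 0 in both and Epcam at or below 0.196 CPM. The mesothelial list summed to 16.3 CPM in Acta2 low and 3.79 CPM in Acta2 high, with Wt1 at 2.16 and 0 CPM. The part of these markers in the Foxq1 difference was not tested. Tbx2 was 1.49-fold higher in Acta2 high (1.26 to 1.77) and Hoxa5 1.38-fold higher (1.12 to 1.72), both short of 2-fold.

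Within 2-fold of Untreated in all 5 transferred libraries were 9 of 25 members (36.0%, where 47.3% of all genes were): Foxc1, Foxn3, Foxs1, Hoxa3, Hoxb2, Hoxb7, Meis1, Pbx2 and Tbx3. The remaining 11 met none of the 3 rules. Some of the 9 lay at the edge of 2-fold. Meis1 was 2.01-fold lower on Day 2 (1.30 to 3.13) and Pbx2 1.95-fold higher on Day 7 (1.15 to 3.44). Meis1 was called lower on Day 2 with a pseudocount of 0.1. Pbx2 was called higher on Day 7 on CPM as deposited and without the 100 most abundant genes. Foxc1, at 4.94 CPM in Untreated and 13.5 CPM on Day 4, was called higher on Day 4 in more settings. These were CPM as deposited, a pseudocount of 0.1, no filter, median-ratio scaling and leaving out the 100 most abundant genes. Hoxb2, which patterns the hindbrain in the embryo, had 29.6 CPM in Untreated, 30.8 on Day 2, 30.1 on Day 4, 54.3 on Day 7, 38.9 in Acta2 low cells and 39.1 in Acta2 high cells. Only Day 7 stood above the rest, at 1.42-fold relative to the median gene (1.17 to 1.72).

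Hoxa5, which the mouse needs for normal lung and trachea formation, had 50.3 CPM in Untreated, 46.0 on Day 2, 52.4 on Day 4, 57.1 on Day 7, 31.2 in Acta2 low cells and 39.5 in Acta2 high cells. The day libraries lay around the Untreated value and the Acta2 sorts below it. It was 1.67-fold lower on Day 2 (1.41 to 1.97) and 2.11-fold lower in Acta2 low (1.73 to 2.58). Hoxa7 also had its lowest values in the sorts. It had 11.7 CPM in Untreated, 8.74 on Day 2, 7.19 on Day 4, 7.86 on Day 7, 3.73 in Acta2 low cells and 3.99 in Acta2 high cells, a 4.10-fold lower level in Acta2 low (2.43 to 7.25) and 3.48-fold lower in Acta2 high (2.08 to 6.08).

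The other members that passed the filter had low levels. Meis1 ran from 5.19 to 8.77 CPM, highest in Untreated, and Meis2 from 4.21 to 6.76 CPM, with Day 2 at 2.45-fold lower than Untreated (1.44 to 4.21). Pbx2 ran from 3.66 CPM in Untreated to 9.23 CPM on Day 7. Hoxa3 ran from 7.13 to 11.5 CPM, Hoxb7 from 3.84 to 6.96 CPM, Foxn3 from 6.32 to 12.5 CPM and Foxs1 from 3.84 to 7.79 CPM.

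The 77 members below the filter held few tags, and 40 of them had any. The highest of each family by mean level were Hoxa2 at 1.75 CPM, Hoxb6 at 1.90, Hoxc5 at 0.0897, Tbx6 at 1.54, Foxj2 at 3.94, Meox1 at 3.11 and Pbx3 at 2.49. Some of these low genes moved by many-fold, and those named here beyond the highest were chosen after their values were seen. Meox1, a relative of Meox2 that has been tied to fibroblast activation in the mouse heart, had 1 tag in Untreated, 11 on Day 2, 15 on Day 4, 27 on Day 7, 15 in Acta2 low cells and 29 in Acta2 high cells. It stood above Untreated in every transferred library and Meox2 below, but its ratios to Untreated rest on that 1 tag, as on Day 7, where the ratio was 19.5 (3.21 to 798). Between the sorts, Meox1 was 2.15-fold higher in Acta2 high (1.12 to 4.31).

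Foxl1, a forkhead gene of the mesenchyme under gut epithelium, had 35 tags in Untreated, 7 on Day 2, 2 on Day 4, 23 on Day 7, 3 in Acta2 low cells and 2 in Acta2 high cells. It shared with Tbx2 and Foxq1 the low point on Day 2 or Day 4 and the higher value on Day 7. Tbx6, a T-box gene of the embryonic somites, had 18 tags in Untreated, 0 on Day 2, 1 on Day 4, 29 on Day 7, 1 in Acta2 low cells and 3 in Acta2 high cells. Against a floor of 3 tags it was at least 10.3-fold lower on Day 2. Pbx3 had 2 tags in Untreated and 13 to 18 in each transferred library.

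Foxo1, the Foxo gene with the most tags, had 23 tags in Untreated, 12 on Day 2, 5 on Day 4, 12 on Day 7, 7 in Acta2 low cells and 4 in Acta2 high cells. It was 3.30-fold lower on Day 2 (1.57 to 7.27) and 6.26-fold lower in Acta2 high (2.14 to 24.9). Among 21 listed genes known as Foxo targets, 11 passed the filter. Of these, 6 were lower on Day 2, 6 on Day 4 and 4 on Day 7, beside 1, 0 and 0 that were higher, where 18.6%, 16.4% and 9.08% of all genes were lower. The list's medians were -1.08, -1.05 and -0.60 log2, and -0.47, -0.75 and -0.23 on CPM as deposited. Txnip, an inhibitor of thioredoxin and of glucose uptake, had 82.8 CPM in Untreated and 7.46 to 16.4 CPM after transfer. Klf15, a transcription factor of the fasting response, had 25.6 CPM in Untreated and 1.57 to 4.78 CPM after transfer. Klf15 passed the filter of 5 CPM only through Untreated, so its lower calls in these counts were largely fixed by the filter. Sod2, a mitochondrial superoxide dismutase, was the exception, at 163 CPM in Untreated and 842 CPM on Day 2.

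Of 24 listed regulators of lung and gut mesenchyme outside these families, 23 were in the table and 8 passed the filter. They included 4 lower and 1 higher on Day 2, the same counts on Day 4, and 4 lower and 2 higher on Day 7. Of all genes, 18.6%, 16.4% and 9.08% were lower and 19.1%, 18.2% and 11.4% higher on those days. Gata6, 1 of the 2 higher on Day 7, had 4.39 CPM in Untreated and passed the filter through transferred libraries. Its call was thus partly fixed by the filter. The list's median on Day 2 was -1.13 log2, and -0.52 on CPM as deposited. Tcf21, a factor of lung lipofibroblasts, had 1230 CPM in Untreated, 49.7 on Day 2, 21.1 on Day 4 and 97.7 on Day 7. Bmp4, a signalling ligand of embryonic lung mesenchyme, had 73.5 CPM in Untreated, 8.42 on Day 2, 6.74 on Day 4 and 16.9 on Day 7. Sox9, a cartilage and progenitor factor, went from 5.48 CPM to 39.4, 58.5 and 70.6 CPM.

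All 13 listed Hedgehog genes were in the table and 4 passed the filter. On Day 2, 3 were lower and none higher, on Day 4, 2 were lower, and on Day 7, 1 was lower and 1 higher. Of all genes, 18.6%, 16.4% and 9.08% were lower and 19.1%, 18.2% and 11.4% higher on those days. Boc, lower on each day, had 12.6 CPM in Untreated and 4.70, 3.82 and 5.98 CPM on Day 2, Day 4 and Day 7. Boc passed the filter through Untreated, so its calls were partly fixed by the filter. Smo, the gene higher on Day 7, had 4.39 CPM in Untreated and passed through transferred libraries, so its call was partly fixed too. Gli1, the transcription factor whose own gene reports Hedgehog signalling, had 7.13 CPM in Untreated, 2.11 on Day 2, 4.27 on Day 4 and 12.5 on Day 7. Gas1, a co-receptor, had 48.8, 9.39, 19.3 and 33.7 CPM in the same order. Like Foxf2, both were lowest on Day 2. The list's median was -1.93 log2 on Day 2, -1.26 on Day 4 and -0.27 on Day 7, the last above 0 on CPM as deposited.

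Retinoic acid genes, which set Hox expression in the embryo, numbered 18 in the list, all in the table, and 10 passed the filter. There were 2 higher and 3 lower on Day 2, 3 higher and 2 lower on Day 4, and 1 lower on Day 7. Every gene higher on these days was Rdh10, Aldh1a2 or Aldh1a3, at 1.28, 3.47 and 1.83 CPM in Untreated. Of all genes, 19.1% were higher and 18.6% lower on Day 2, so the Day 2 counts were near the background. Aldh1a3, which makes retinoic acid, had 1.83 CPM in Untreated, 32.5 on Day 2, 15.5 on Day 4 and 3.76 on Day 7. Rbp4, a retinol carrier, had 197 CPM in Untreated, 73.5 on Day 2, 20.5 on Day 4 and 24.4 on Day 7. Of 28 listed chromatin regulators of Hox loci, 26 were in the table and 13 passed the filter. On Day 2, 1 was higher and 3 were lower, and on Day 4, 2 were higher and 2 lower. On Day 7 only Ezh2, the Polycomb methyltransferase, was called, higher at 6.32 CPM against 0.914 CPM in Untreated. Of all genes, 19.1%, 18.2% and 11.4% were higher and 18.6%, 16.4% and 9.08% lower on those days. Ezh2, Rdh10, Aldh1a2 and Aldh1a3 stood below 5 CPM in Untreated and passed the filter through transferred libraries. Their higher values were thus partly fixed by the filter. Of 9 listed Hox partners outside the families only Tgif1 passed the filter, at 8.96 CPM in Untreated and 25.8 to 41.6 CPM after transfer.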

How the data were processed

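Expression was measured by 3' SAGE, which counts a short tag near the 3' end of each transcript, after PCR amplification of the cDNA, per the labels' protocols. BWA 0.6.2 and the build mm9 are named in the submitters' processing notes. The sources used here give neither the anchoring enzyme nor the tag-to-gene rule nor whether strand was used. The authors deposited 24408 genes in CPM, tags per 1000000 assigned tags, for 6 libraries of 1 group each, per the file headers. Every deposited CPM value (100%, tolerance 0.001) was a whole number of steps of its library's smallest value, and dividing by that step gave tag counts. In 25 rows a date stood for the symbol, which was restored from the transcript title.

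Libraries held 4448065 to 6175334 tags. A level of 10 CPM in the shallowest, Day 4, spans 7.19 to 13.3 CPM (exact 95% Poisson interval). No molecular identifiers marked PCR copies, so intervals and floors (3 tags) cover counting error only.

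Tested genes averaged 5 CPM or more over the 6 libraries (5903 genes). For each of 6 comparisons, and for each transferred library against Untreated, the difference of log2(CPM + 1) was taken and the median over tested genes was removed. A gene was called at a difference of at least 1, which is 2-fold. With 1 library a group there is no replicate error and no p-value. Ratios of single genes are CPM ratios divided by the fold of that median, with exact conditional (Clopper-Pearson) 95% intervals of the tags. The pseudocount understates changes of low genes, so a ratio can pass 2 while the call does not.

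All 6 values are given for members averaging 20 CPM or more, for those lower or higher in all 5 transferred libraries and for those called between the Acta2 sorts; other members given in full were chosen after their values were seen. The values of 1 member are not reported here, though counts include it. The members and lists were chosen with earlier results of these data known. Alternatives are in the closing section. An exact binomial test of the tags with Benjamini-Hochberg adjustment, and a run without Foxr1, were added after seeing the data. The 2-fold rule was also run on simulated tag counts that carry counting error only, so that run does not bear on differences between animals. Its outcome is not given here. Work was done in Python 3.11.15 with NumPy 2.4.6, pandas 2.3.3 and SciPy 1.17.1.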

Additional observations from a re-analysis of the deposited data

How the results depend on the processing

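Of the 14 counts of members called, every one stayed within 1.5 times its value with a pseudocount of 0.1, with median-ratio scaling, without the 100 most abundant genes, with the exact binomial test of the tags added, and without Foxr1. With the binomial test, 1130 genes were called higher and 1095 lower on Day 2 against Untreated. In what follows, percentages in brackets are the share of all genes compared that met the same rule in the same setting. With a pseudocount of 5, the members called higher on Day 2 were 2 (15.0%). From Day 2 to Day 4, 2 were higher (2.76%), and from Day 4 to Day 7, 1 was (5.74%). Those lower in Acta2 high were 0 (0.271%), and those lower in all 5 transferred libraries were 2 (4.37%). With no filter, 65 members were compared. Against Untreated 8 were higher on Day 2 (15.1%), 10 on Day 4 (13.4%) and 5 on Day 7 (8.75%). On Day 7, 2 were lower (5.66%). Without that filter, 1 was lower from Day 2 to Day 4 (3.51%). From Day 4 to Day 7, 5 were higher (6.95%) and 5 lower (4.89%). In all 5, 2 were lower (3.02%) and 3 higher (4.23%). On CPM as deposited, 4 members were lower on Day 2 (9.05%) and 1 on Day 7 (5.35%). On that scale 1 was higher from Day 2 to Day 4 (2.61%), and 1 was lower in all 5 (3.54%). At 4-fold, 1 was higher (6.7%) and 2 lower (5.83%) on Day 2, and 2 higher (6.93%) and 1 lower (4.91%) on Day 4. On Day 7, 0 were higher (3.30%) and 0 lower (2.83%). There were 0 higher from Day 2 to Day 4 (0.661%) and from Day 4 to Day 7 (1.51%). At that size 0 were lower in Acta2 high (0.102%), and 0 lower (2.07%) and 0 higher (1.25%) in all 5. Leaving out 1 transferred library at a time gave 4 to 5 members lower in all the rest (6.15% to 9.94%). It gave 1 to 3 higher (6.49% to 10.4%). The cause was not tested, beyond what the settings themselves change.

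Over all genes, CPM as deposited gave 2156 higher and 534 lower on Day 2 against 1130 and 1098 with the median removed, 1471 and 676 on Day 4, and 1176 and 316 on Day 7. For 12 members with all 6 values given, over 6 comparisons, 29 of 72 differences moved by more than their interval on CPM as deposited, 7 of 72 with a pseudocount of 5, and none with a pseudocount of 0.1, median-ratio scaling or without the 100 most abundant genes. Depth limits members of a few tags, where PCR error is not covered. No paired analysis was possible because each group has 1 library.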
